A study of Homo sapiens with 6 samples.

Results

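MYD88, its partner adaptor TIRAP, the 4 IRAK proteins and the Toll-like receptors TLR1, TLR7, TLR9 and TLR10 were followed at the RNA level in SU-DHL-2 cells with and without IL-17A. SU-DHL-2 is an established human line of diffuse large B-cell lymphoma (DLBCL). It is generally classed as activated B-cell-like, a subtype that the sample titles do not give. The cells were cultured for 72 h with IL-17A at 200 pg/ml (3 samples) or without it (3 samples), and otherwise carried no treatment or genetic change that the labels name. Each sample was hybridised to its own 1-colour Agilent array, and the p-values measure the spread between the 3 samples of a group, which may be partly technical where the samples were not independent cultures. The genes were taken as the probes whose RefSeq accession belongs to 1 of the 10 genes, which gave 13 probes for 10 of the 19740 genes named on the array. Of these, 12 probes for 9 genes were detected on at least 3 of the 6 arrays and were tested. The tested set held 23945 probes in all. The remaining probe, for IRAK3, was not well above background on any array. The results come from a single cell line, and they concern RNA only.

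Toll-like receptors recognise microbial lipids, proteins and nucleic acids and, like the IL-1 receptor family, carry a TIR domain inside the cell. On engagement they recruit MYD88, for some receptors through the bridging adaptor TIRAP. MYD88 stacks with the kinase IRAK4 and then with IRAK1 or IRAK2 into a complex called the Myddosome, which passes the signal through TRAF6 and TAK1 to NF-κB. In the activated B-cell-like form of DLBCL, mutations of MYD88 commonly keep this route active, and the endosomal TLR7 and TLR9 are among the Toll-like receptors that B cells express. The IL-17 receptor does not use MYD88; it signals through the adaptor ACT1, which also reaches TRAF6 and NF-κB.

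The upstream sequences of 3 of the genes are shown because the text turns on these genes and because 2 of them carry short elements that B cells and interferon responses are known to use. RefSeq (GRCh38.p14) gave a promoter for 6 of the 10 genes, IRAK1, IRAK2, IRAK3, IRAK4, MYD88 and TLR9. The 250 bases before the annotated start are printed on the gene's own strand, 5′ to 3′. They lie at chr3:38138411-38138660 (plus strand) for MYD88, at chr3:52225646-52225895 (minus strand) for TLR9 and at chr12:43758701-43758950 (plus strand) for IRAK4. Capitals mark a match to GAAANNGAAA, a core of the interferon-stimulated response element, or to ATGCAAAT, the octamer bound by OCT factors.
MYD88: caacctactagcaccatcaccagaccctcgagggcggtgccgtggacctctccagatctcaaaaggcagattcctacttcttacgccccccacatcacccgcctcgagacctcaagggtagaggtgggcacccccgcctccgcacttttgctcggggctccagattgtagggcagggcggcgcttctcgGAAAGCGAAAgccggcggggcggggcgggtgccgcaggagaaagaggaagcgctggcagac
TLR9: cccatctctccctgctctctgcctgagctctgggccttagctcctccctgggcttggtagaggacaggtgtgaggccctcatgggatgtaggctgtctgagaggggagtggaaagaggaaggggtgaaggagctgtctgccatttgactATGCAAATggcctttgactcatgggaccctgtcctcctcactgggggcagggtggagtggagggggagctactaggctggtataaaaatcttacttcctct
IRAK4: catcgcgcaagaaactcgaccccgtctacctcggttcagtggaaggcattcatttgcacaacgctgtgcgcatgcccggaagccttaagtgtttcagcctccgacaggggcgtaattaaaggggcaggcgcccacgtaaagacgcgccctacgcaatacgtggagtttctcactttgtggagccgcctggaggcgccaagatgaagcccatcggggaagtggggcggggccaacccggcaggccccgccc
Both strands were searched. Of all 35116 RefSeq promoters, 3.02% held GAAANNGAAA in the same window and 1.63% held the octamer. Among the 6 promoters, GAAANNGAAA occurred in MYD88 alone, beginning 61 bases before the start, and the octamer in TLR9 alone, 101 bases before the start. GAGGAA, a short form of the site bound by PU.1, occurred in MYD88 and TLR9 and in 23.6% of all promoters, and it overlapped neither of the other matches. The kappaB consensus was found in the IRAK1 window and in 9.96% of all promoters. These matches are descriptions of letters, and binding was not measured here.

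IL-17A was compared with control at each probe to find how far the RNA of this route differed after 72 h. TLR10, a receptor expressed mainly in B cells, fell with IL-17A, and IRAK4, the first kinase of the Myddosome, rose; the other 10 probes did not pass the test. Both changes were small, 1.20-fold down for TLR10 and 1.16-fold up for IRAK4. The limma fit gave an adjusted p under 0.05 for these 2 of 12 probes (16.7%), 1 in each direction. Over all probes the same fit called 7.59%, of which 3.17% were lower and 4.43% higher with IL-17A. No probe of the 12 reached a 1.5-fold change with an unadjusted p under 0.05, against 2.18% of all tested probes. The 95% confidence intervals of all 12 probes lay within 1.5-fold in either direction, with bounds from −0.57 to 0.43 on the log2 scale. In 6 of the 12 probes the groups did not overlap, against 39.0% of all probes. The median log2 fold change was −0.05 for the 12 probes and 0.01 for all probes, and the median absolute value was 0.13 and 0.12. Here fewer cells expressing a gene and less RNA per cell cannot be told apart.

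**Figure D1:**
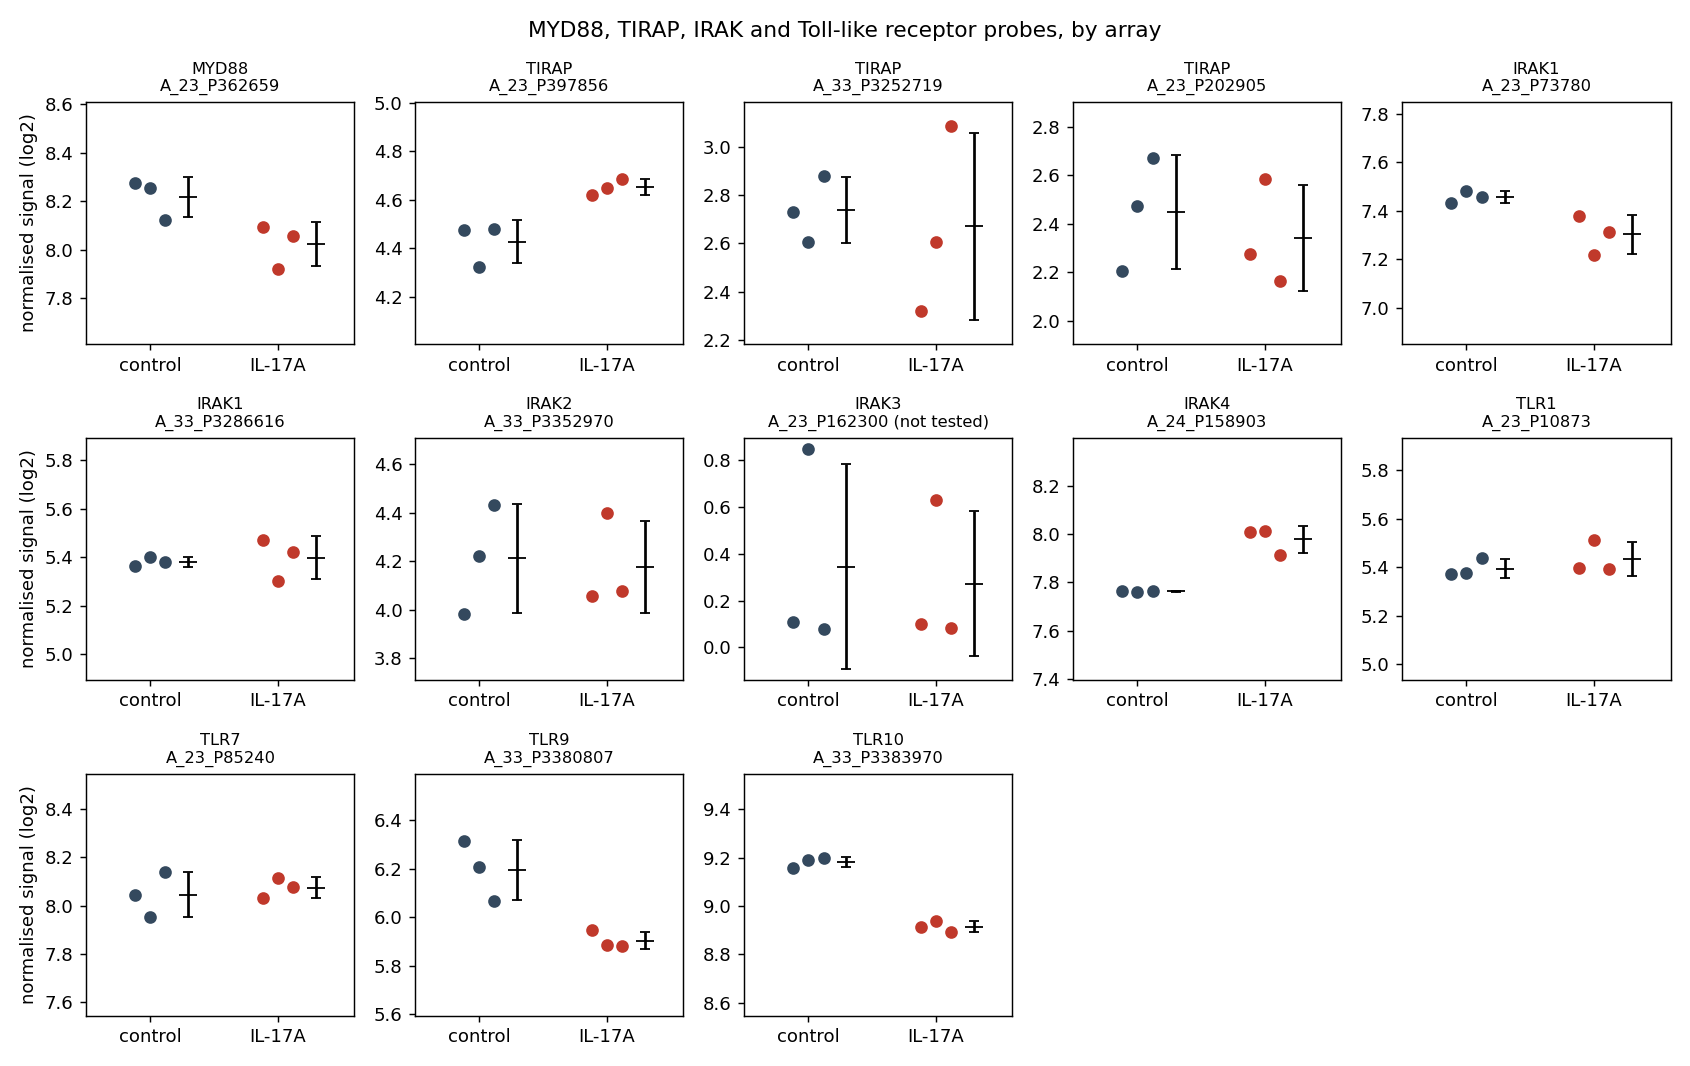
Quantile normalised signal (log2, vertical axis) of the 13 probes on each array, control in dark blue and IL-17A in red, with the mean and SD of each group as a bar at its right. Axes span about 1 log2 unit and differ in position, so that heights are compared within a panel only; TLR10, TLR9, MYD88, 1 IRAK1 probe, IRAK4 and 1 TIRAP probe show no overlap between the groups.

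The signals given below are quantile normalised linear intensities in arbitrary units, in which different probes cannot be ranked against each other, and fold changes are differences of log2 signals, IL-17A minus control. Standard errors (SE) are those of limma, and adjusted p-values are Benjamini-Hochberg over all tested probes.

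Among the receptors, TLR10 showed the clearest separation. Its signal was 482, 490.5 and 475 with IL-17A and 571, 584 and 587 in the controls. All 3 IL-17A arrays lay below all 3 controls, and the arrays of each group lay close together. The log2 fold change was −0.27 (SE 0.035, 95% interval −0.36 to −0.18; adjusted p = 0.0324 by limma). Its unadjusted p of 0.000375 ranked 277 of 23945.

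TLR9, the endosomal receptor for unmethylated CpG DNA, had a difference of similar size and more spread. Its signal was 61.7, 59.0 and 59.0 with IL-17A and 79.6, 73.9 and 67.0 in the controls. The groups did not overlap, but the controls were spread over a wider range than the IL-17A arrays. The log2 fold change was −0.29 (SE 0.071, 95% interval −0.47 to −0.12), with an unadjusted p of 0.00708 and an adjusted p of 0.0622 by limma, just above the threshold. Of the promoters searched, which included no other Toll-like receptor, that of TLR9 alone held the octamer. Its part in this difference was not tested.

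TLR7, the endosomal receptor for single-stranded RNA, read 261, 277 and 270 with IL-17A and 264, 248 and 282 in the controls. The groups overlapped, and the log2 fold change was 0.03 (SE 0.059, 95% interval −0.12 to 0.17). TLR1, which pairs with TLR2 to sense bacterial lipopeptides, read 42.1, 45.7 and 42.0 with IL-17A and 41.4, 41.5 and 43.3 in the controls. These groups overlapped as well, at a log2 fold change of 0.04 (SE 0.050, 95% interval −0.08 to 0.16).

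TLR1 was the only one of the 10 genes printed at more than 1 spot, and its probe therefore shows how far a signal varies within an array. It stood at 10 spots per array. Before normalisation, the lowest, median and highest spots were 37.7, 42.5 and 45.6 on IL-17A replicate 1 and 36.6, 39.8 and 44.0 on control replicate 2. The coefficient of variation over the 10 spots was 4.57% to 5.93%, an SD of 0.065 to 0.085 on the log2 scale. The SD between arrays of the averaged TLR1 signal was 0.069 with IL-17A and 0.038 in the controls. The other 12 probes were single spots, whose measurement error on an array was not averaged down.

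**Figure D2:**
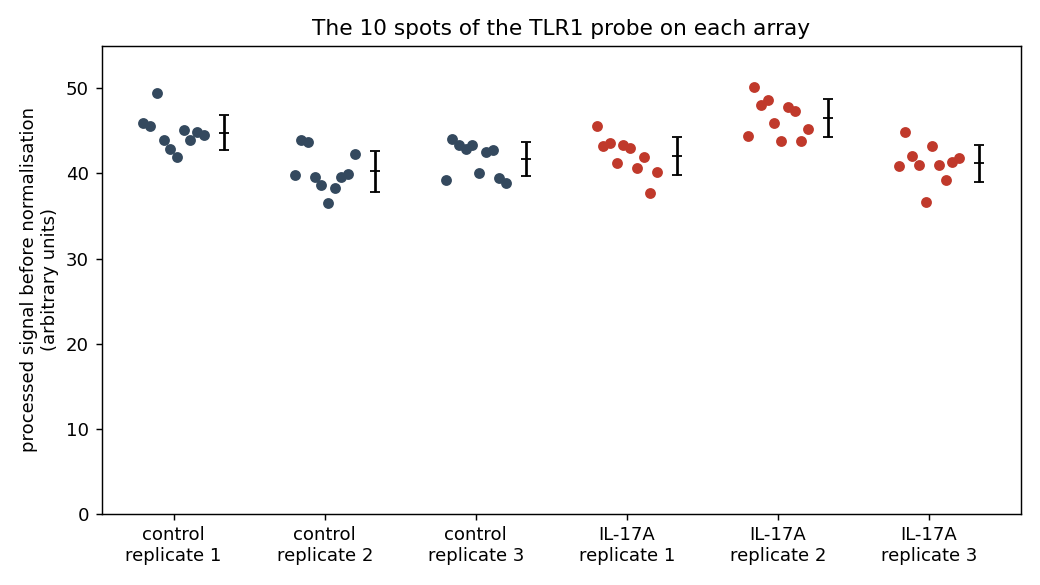
Processed signal before normalisation (vertical axis, arbitrary units, from 0) of the 10 TLR1 spots on each of the 6 arrays, controls in dark blue and IL-17A in red, with the mean and SD of the 10 spots at their right. The spots of 1 array spread by 4.57% to 5.93% of their mean, and the clouds of the 2 groups overlap.

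TLR10 and TLR1 are neighbours on chromosome 4, with TLR6 next to them beyond a long non-coding RNA gene. At TLR6 the groups overlapped, at a log2 fold change of 0.18 (SE 0.207, adjusted p = 0.585 by limma). Its signals of 5.54 to 8.97 were near background, so that a difference at TLR6 could be missed. The change of TLR10 relative to TLR1 was −0.31 on the log2 scale, and the difference TLR10 minus TLR1 did not overlap between the groups. The exact permutation test over the 6 arrays gave p = 0.1, two-sided, which is the smallest p that 3 arrays against 3 allow. TLR9 relative to TLR7 differed by −0.32, also without overlap and with the same exact p of 0.1. Of 8 such pairs compared, 6 reached this p, and the adjusted value over the 8 pairs was 0.133 for each of these. For TLR10 relative to TLR1 this p was fixed in advance. On the log2 scale TLR10 was at most 8.94 with IL-17A and at least 9.16 in the controls. That gap was wider than the whole range of TLR1, 5.37 to 5.51, so subtracting TLR1 could not make the groups overlap. The p therefore adds nothing to the result of TLR10 alone. It was also fixed for IRAK4 and TIRAP relative to MYD88, and for IRAK4 relative to IRAK1, as described below.

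The adaptor MYD88 read 273, 242 and 266 with IL-17A and 310, 305 and 278 in the controls. All IL-17A arrays were lower than all controls, although IL-17A replicate 1 and control replicate 3 lay near each other. The log2 fold change was −0.19 (SE 0.068, 95% interval −0.36 to −0.02), a 1.14-fold difference, with an unadjusted p of 0.0312 and an adjusted p of 0.124 by limma. MYD88 therefore did not pass the test.

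TIRAP, which bridges MYD88 to receptors at the plasma membrane, was read by 3 probes that differed. At its brightest probe (A_23_P397856) the signal was 24.6, 25.1 and 25.7 with IL-17A and 22.2, 20.0 and 22.3 in the controls. The IL-17A arrays were all higher, at a log2 fold change of 0.23 (SE 0.056, unadjusted p = 0.00784, adjusted p = 0.0648 by limma). At A_33_P3252719 the signal was 4.995, 6.09 and 8.49 against 6.63, 6.09 and 7.35, with a log2 fold change of −0.07 (SE 0.202). At A_23_P202905 it was 4.84, 6.00 and 4.48 against 4.60, 5.55 and 6.37, with a log2 fold change of −0.11 (SE 0.159). Both dim probes lay near the lowest signals that were well above background, 3.62 to 4.32 per array, and were well above background on 2 and 1 of the 3 IL-17A arrays. With the 3 probes averaged the log2 fold change of TIRAP was 0.02 (unadjusted p = 0.860 by limma), so that the value of 0.23 rests on the bright probe. The groups of both dim probes overlapped, and the difference between the bright probe and each of them was not separated (exact permutation p = 0.4 and 0.2).

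IRAK4 read 258, 258 and 241 with IL-17A and 217, 217 and 217 in the controls. The controls agreed within an SD of 0.0019 on the log2 scale, and all IL-17A arrays stood above them. That SD was far below the 0.065 to 0.085 among the TLR1 spots within an array. For a probe of 1 spot, such close agreement cannot be taken as its precision. The log2 fold change was 0.22 (SE 0.043, 95% interval 0.11 to 0.32; adjusted p = 0.0457 by limma).

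IRAK1, the kinase that IRAK4 phosphorylates, had 2 probes. A_23_P73780 read 166, 149 and 159 with IL-17A and 172, 179 and 176 in the controls, without overlap. Its log2 fold change was −0.15 (SE 0.052, unadjusted p = 0.0273, adjusted p = 0.116 by limma). A_33_P3286616 read 44.4, 39.4 and 42.8 against 41.1, 42.3 and 41.6, with overlap and a log2 fold change of 0.02 (SE 0.054). The first probe minus the second had a log2 difference of −0.17 between the groups, without overlap (exact permutation p = 0.1, the smallest possible). The second probe was near 0, and its sign was negative with the 75th percentile or normexp (−0.01 and −0.02). With both probes averaged the log2 fold change of IRAK1 was −0.07.

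IRAK2, an alternative partner of IRAK4, read 16.6, 21.1 and 16.9 with IL-17A and 15.8, 18.7 and 21.6 in the controls. The groups overlapped, and the log2 fold change was −0.04 with a wide interval of −0.40 to 0.33. IRAK3, known as an inhibitor of the route in monocytes and macrophages, was not well above background on any array, with signals of 1.06 to 1.80, and no fold change is given.

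Within the Myddosome the differences had both signs, and that of IRAK4 alone passed the test. IRAK4 relative to MYD88 differed by 0.41 on the log2 scale, and IRAK4 relative to the brighter IRAK1 probe by 0.37. TIRAP relative to MYD88 differed by 0.42 at its brightest probe, the one TIRAP probe that was higher with IL-17A. None of these differences overlapped between the groups, and each had an exact permutation p of 0.1, with 0.133 after adjustment over the 8 pairs. In each pair both probes already lay apart in opposite directions, so their difference had to separate. This p was therefore fixed in advance and adds nothing to the results of the single probes.

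**Figure D3:**
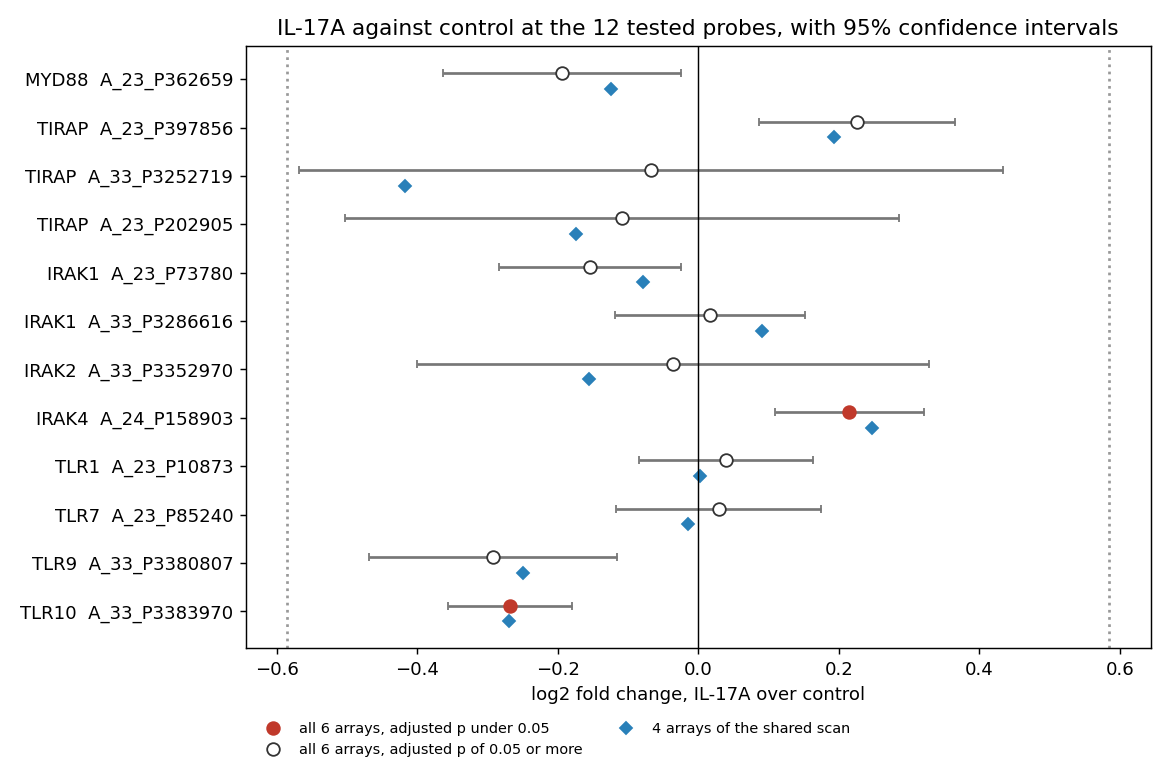
Log2 fold change, IL-17A over control (horizontal axis), of the 12 tested probes, with 95% confidence intervals from all 6 arrays (circles, filled red where the adjusted p was under 0.05) and the value from the 4 arrays of 1 scan (blue diamonds). Dotted lines mark 1.5-fold; TLR10 at −0.27 and IRAK4 at 0.22 are the filled circles, and the diamonds of MYD88 and IRAK1 A_23_P73780 lie nearer to 0 than their circles.

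The 6 arrays came from 2 scans, and the scan was unevenly shared between the groups. IL-17A replicate 1 and the 3 controls were in 1 scan, and IL-17A replicates 2 and 3 were in the other. With scan as a block, where each fold change is that of IL-17A replicate 1 against the 3 controls of its scan, 11 of 12 probes kept their sign and none had an adjusted p under 0.05, while 2 had an unadjusted p under 0.05. The exception in sign was TLR7, at −0.01. TLR10 was −0.27 (unadjusted p = 0.00443, adjusted p = 0.105 by limma) and IRAK4 was 0.25 (unadjusted p = 0.0108, adjusted p = 0.125 by limma), close to their values from all arrays. TLR9 was −0.25 and the bright TIRAP probe 0.19. MYD88 was smaller at −0.12 and IRAK1 A_23_P73780 at −0.08, with unadjusted p of 0.248 and 0.263 by limma. The dim TIRAP probe A_33_P3252719 moved to −0.42. Over all probes, 48 had an adjusted p under 0.05 in this fit, against 1818 without the block.

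Leaving out 1 array, which leaves 3 against 2, ended most calls. The log2 fold change of TLR10 then stayed between −0.28 and −0.26, with adjusted p of 0.0495 to 0.135 by limma, under 0.05 only without control replicate 3. For IRAK4 it stayed between 0.20 and 0.25, with adjusted p of 0.0743 to 0.167. Over all probes the count of calls was 69, 3 and 4 without IL-17A replicates 1, 2 and 3 and 2, 8 and 983 without control replicates 1, 2 and 3.

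The rest of the route was read in 9 lists of 100 genes, each gene by its brightest tested probe. Some genes had further tested probes whose values are not given here, with 4 tested probes in all for ATF3, 3 for UNC93B1 and 2 for HSP90B1. Of 81 tested genes, HSP90B1 and TRAF3 rose, ATF3 fell, and 78 did not pass the test. Among all 14747 tested genes, 4.37% were called higher and 3.48% lower. The median log2 fold change was −0.01 for the 81 genes and 0.00 for all genes.

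Of the other Toll-like receptors, 3 of 6 were tested and none was called. TLR5, the flagellin receptor, had the largest difference. It read 16.7, 20.6 and 18.3 with IL-17A and 23.6, 28.6 and 24.5 in the controls, without overlap, at a log2 fold change of −0.46 (SE 0.107, adjusted p = 0.0579 by limma). TLR2, TLR4 and TLR8 were not well above background on any array; TLR2 is the partner of TLR1 in lipopeptide sensing.

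All 13 co-receptors and chaperones were tested, and 1 was called. HSP90B1, the endoplasmic reticulum chaperone GRP94 that folds most Toll-like receptors, read 14718, 15085 and 15124 with IL-17A and 12841, 12983 and 13472 in the controls. It rose by 0.19 on the log2 scale (SE 0.038, adjusted p = 0.0457 by limma). UNC93B1, which carries TLR7 and TLR9 to the endosome, was chosen after its values were seen because it handles the same receptors. It read 255, 247 and 251 with IL-17A and 318, 307 and 275 in the controls, lower without overlap at −0.25 (SE 0.062, adjusted p = 0.0632 by limma).

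In the relay from IRAKs to TAK1, all 19 genes were tested and 1 was called. TRAF3, a ubiquitin ligase that restrains the alternative NF-κB route and serves the interferon branch, read 60.8, 60.3 and 58.3 with IL-17A and 50.6, 49.2 and 52.2 in the controls. It rose by 0.24 (SE 0.041, adjusted p = 0.0372 by limma). TRAF6, the ligase directly after the IRAKs, was named after its values were seen and was at 0.12 (SE 0.063, adjusted p = 0.261 by limma), with overlapping groups, and at 0.19 with the scan as a block.

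Of 13 tested inhibitors of the route, ATF3 was the one called. ATF3, a stress-induced repressor of inflammatory genes, read 154, 157 and 154 with IL-17A and 197, 189 and 219 in the controls. It fell by 0.37 on the log2 scale (SE 0.063, adjusted p = 0.0363 by limma). With the scan as a block, HSP90B1, TRAF3 and ATF3 were at 0.17, 0.26 and −0.38, and none of the 81 genes was called.

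No gene was called among the TRIF-side adaptors (2 of 3 tested), the IL-1 receptor family (3 of 10 tested), the IL-1 family ligands (5 of 10 tested) or the interferon regulatory factors (6 of 6 tested). The largest difference in each was TICAM1 at 0.21 (adjusted p = 0.0740), IL18RAP at −0.24 (adjusted p = 0.415), IL33 at −0.34 (adjusted p = 0.631) and IRF5 at 0.14 (adjusted p = 0.135), all by limma. TICAM1 encodes TRIF, the adaptor that TLR3 uses in place of MYD88. IL33 was well above background on 2 of 3 arrays in each group. With the scan as a block, IL33 was at −1.24 and IL18RAP at −0.54, moves of over 1.5 times. Both values compare IL-17A replicate 1 alone with the controls. On that array IL33 read 2.76, below the lowest signal that was well above background there, 3.86.

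Genes reported as outputs of MYD88 signaling in activated B-cell-like lymphoma were the largest list, with 18 of 20 tested. None was called in either direction, and 12 had positive and 6 negative log2 fold changes, with a median of 0.10. Among all 14747 tested genes, 7509 had positive log2 fold changes, with a median of 0.00. TNFAIP2, a TNF-induced gene, had the largest difference, at 0.49 (SE 0.156, adjusted p = 0.104 by limma), with overlapping groups and signals of 6.67 to 11.4. NFKBIZ, which encodes the nuclear IκB protein IκBζ, was singled out after its values were seen. It read 62.2, 61.4 and 62.3 with IL-17A and 53.8, 49.5 and 54.9 in the controls. The groups did not overlap, and its log2 fold change was 0.23 (SE 0.050, adjusted p = 0.0516 by limma). IL6, another output singled out in the same way, was not well above background on any array.

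**Figure D4:**
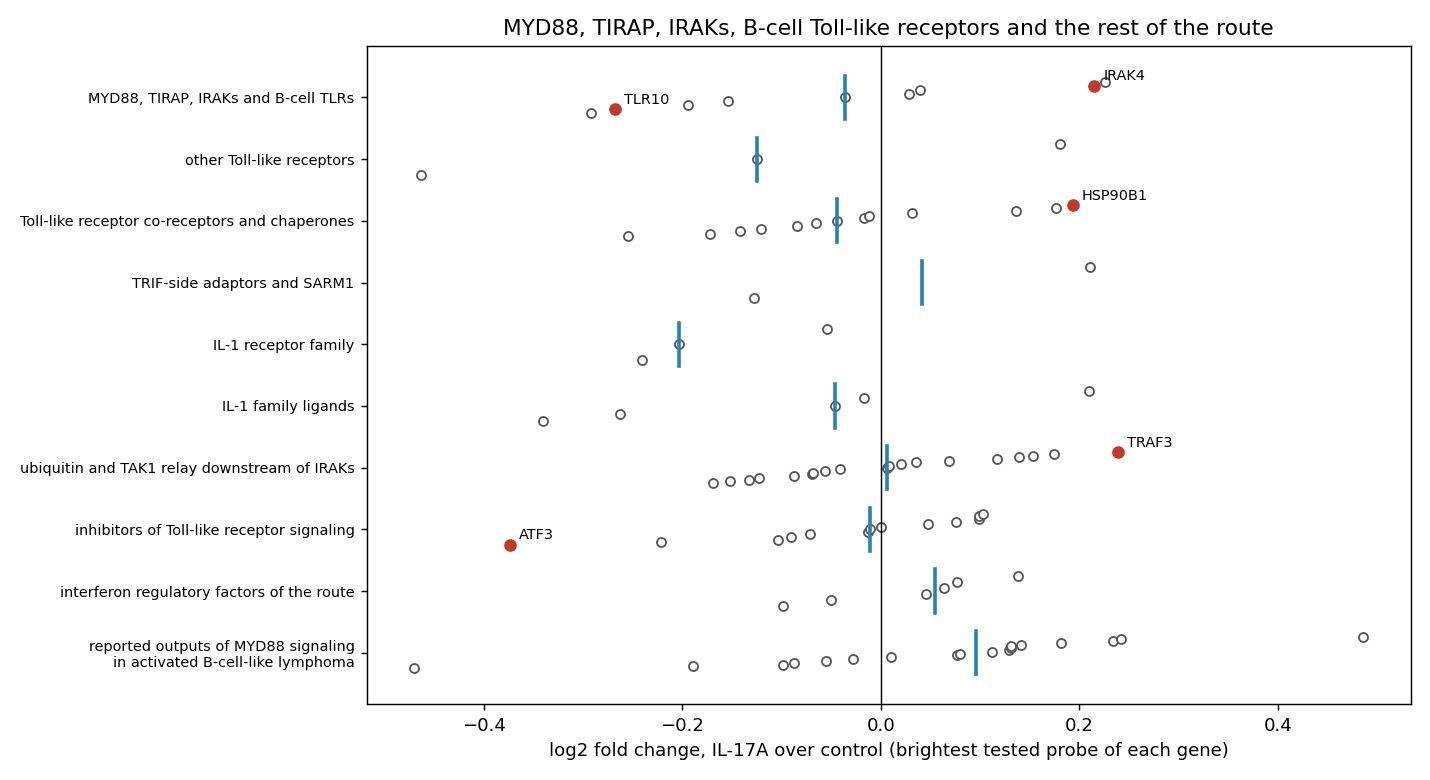
Log2 fold change, IL-17A over control (horizontal axis), of each tested gene by its brightest probe, for the 10 genes in the top row and the 9 lists of the rest of the route. Red points with names had an adjusted p under 0.05, open points did not, and the blue line is the median of the list; medians lie between −0.20 and 0.10.

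The genes whose signal followed MYD88 most closely over the 6 arrays were RHBDD2 (Pearson r = 0.997), FLII (0.996), SFXN2 (0.996), SH3BGRL3 (0.996) and SCGB3A1 (0.995). These are descriptions over 6 arrays that share 2 groups and 2 scans, and 843 of 14747 genes (5.72%) had an r above 0.9 with MYD88. All 5 were lower with IL-17A, at log2 fold changes of −0.32 to −0.15, and none had an adjusted p under 0.05.

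The labelled cell type was checked by its markers. All 12 B cell markers were well above background on all arrays, with a summed signal of 73596 to 75478 with IL-17A and 67638 to 71425 in the controls. Without POU2AF1, the brightest of them, the B cell sum was 45836 to 48604 with IL-17A and 45495 to 46076 in the controls, with overlap. All 9 activated B-cell-like and all 9 germinal centre B-cell-like markers were detected on all arrays. The first summed to 10442 to 11144 with IL-17A and 9129 to 10050 in the controls, and the second to 9024 to 9227 and 9748 to 10181. Without FOXP1 and BCL6, their brightest genes, these sums still did not overlap between the groups. The activated B-cell-like sum was then 4664 to 4873 with IL-17A and 3869 to 4119 in the controls. Much of it was LIMD1, at 2467 to 2704 with IL-17A and 1891 to 2142 in the controls. With LIMD1 left out as well, the activated B-cell-like sums of the groups overlap. Signals of different probes cannot be ranked, so the sums do not tell the subtype. Of 10 monocyte and macrophage markers with a probe, 4 were detected on all arrays, with sums of 161 to 173 with IL-17A and 181 to 225 in the controls, and CSF1R, S100A8, S100A9, CD163 and MPO on none. Of 11 T and NK cell markers, 8 were detected on all arrays, with sums of 1109 to 1202 with IL-17A and 1287 to 1477 in the controls, and of 7 plasmacytoid dendritic cell markers 5, with CLEC4C on none and sums of 6509 to 6959 and 6293 to 6389. These last 2 sums were mostly 1 gene each, CD4 at 851 to 932 with IL-17A and 1008 to 1212 in the controls, and TCF4, which B cells also express, at 6000.2 to 6537 and 5798 to 5897. Without CD4 the T and NK cell sum was 257 to 270.1 with IL-17A and 262 to 279 in the controls, and without TCF4 the dendritic cell sum was 421 to 508 and 483 to 498, both with overlap. The part of these shifts in the differences of TLR10, TLR9 and IRAK4 was not tested. Detected probes numbered 23570 to 24077 per array, no spot was saturated, and the lowest correlation between any 2 arrays was 0.993.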

How the data were processed

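SU-DHL-2 RNA was labelled with Cy3 and hybridised to Whole Human Genome arrays, 1 per sample, and groups were taken from the sample titles. Per the file headers, the authors deposited Feature Extraction 11.0.1.1 output, in which each spot has a background-subtracted linear intensity, not yet normalized from array to array. The authors' series matrix holds log2 values that they had quantile normalized in GeneSpring, and it served as an alternative.

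Control spots and spots marked non-uniform (61 values) were left out. Intensities under 1 were set to 1, the 43118 spots were averaged on the log2 scale to 34127 probes, and arrays were quantile normalized. Probes positive, significant and well above background on at least 3 of 6 arrays (70.2%) were tested with limma 3.58.1 in R 4.3.3, two-sided, without covariates, with Benjamini-Hochberg adjustment. The fit was tested on simulated data. Probes were named through RefSeq accessions (GRCh38.p14); the arrays are annotated on hg19, so no probe coordinates are given. The number of arrays limits the precision.

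Samples were not treated as paired by replicate number. Deviations from the group means of same-numbered arrays correlated at −0.087, −0.0025 and −0.047. With 3 arrays per group and the IL-17A arrays split between scans, these values cannot tell whether the cultures were set up in pairs. The 10 genes, the lists, the motifs and the 8 pairs were chosen with earlier results of these data known. Named genes were all 10 members at every probe, the called genes of each list (or its largest difference) and the 5 genes most like MYD88; UNC93B1, TRAF6, TLR6, NFKBIZ, IL6 and single marker genes were added after their values were seen. Alternatives were the normalization, background correction, filters on dim probes, a floor, a variance trend, the methods' test, the probe of a gene, replicate and scan blocks and each array left out.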

Additional observations from a re-analysis of the deposited data

How the results depend on the processing

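No probe of the 12 reached 1.5-fold with p under 0.05 under any alternative run. Calls by adjusted p moved much more, in the order the 10 genes' probes, all probes and listed pathway genes (2, 1818 and 3 as reported). They numbered 0, 46 and 0 without normalization between arrays, 0, 4 and 0 with a replicate block, 0, 48 and 0 with scan as a block and 0, 27 and 0 within the scan that held both groups. The variance trend gave 3946 probes and 13 pathway genes, with TLR9 as the third call among the 12 probes. The methods' test called 1 probe of the 12, TLR10, and 5 pathway genes; normexp gave 5 pathway genes and the filter on all 6 arrays 6. Leaving out 1 array gave 0 to 2, 2 to 983 and 0 to 2. The share of calls that were higher was 58.3% as reported, 49.4% with the 75th percentile, 45.7% without normalization and 29.2% with scan as a block.

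Of 216 values of single probes, 181 stayed on the same side of the threshold with the same sign, 20 lost a call (TLR10 and IRAK4), 2 gained one (TLR9) and 13 changed sign, all at probes that were not called. The sign changes were TIRAP A_23_P202905 (0.011 with normexp), IRAK1 A_33_P3286616 (−0.013 with the 75th percentile, −0.018 with normexp) and TLR7 (−0.015 with scan as a block and within the scan). With 1 array left out, TIRAP A_33_P3252719 ranged from −0.27 to 0.11, TIRAP A_23_P202905 from −0.23 to 0.0026, IRAK1 A_33_P3286616 from −0.020 to 0.065, IRAK2 from −0.15 to 0.074 and TLR7 from −0.017 to 0.075. The cause of these moves was not tested, except that leaving out an array leaves fewer samples. Signals near background limit the 2 dim TIRAP probes, IRAK3, TNFAIP2, TLR6 and IL33.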

Other observations

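The difference between the lymphoma subtype markers was not described above gene by gene. Of the 9 activated B-cell-like markers, PRDM1 and LIMD1 rose with IL-17A and the other 7 did not pass the test, while 4.37% of all tested genes were called higher and 3.48% lower. PRDM1, which encodes BLIMP1, a repressor that drives plasma cell differentiation, read 65.7, 65.5 and 64.2 with IL-17A and 47.9, 48.4 and 53.8 in the controls. At the brighter of its 2 tested probes, the only one given here, the log2 fold change was 0.38 (SE 0.056, adjusted p = 0.0327 by limma). LIMD1, an adaptor with LIM domains, was also at 0.38 (SE 0.065, adjusted p = 0.0363 by limma). With the scan as a block they were at 0.40 and 0.31 and neither was called (adjusted p = 0.118 and 0.146 by limma). Of the 9 germinal centre B-cell-like markers, 8 had negative log2 fold changes and none was called, while 7238 of 14747 tested genes were lower. The median was −0.15, against 0.20 for the activated B-cell-like list and 0.00 for all genes. With the scan as a block SERPINA9, the largest difference, moved from −0.52 to −0.04, and no marker of the germinal centre list changed sign. Of 8 tested T and NK cell markers, 4 had positive and 4 negative log2 fold changes. CD3E was the one called, at −0.46 (SE 0.082, adjusted p = 0.0401 by limma) and signals of 6.53 to 9.99, and it was not called with the scan as a block (adjusted p = 0.163). CD2 lay the other way at 0.51 (adjusted p = 0.0539 by limma), without overlap.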
